A study of Mus musculus with 2 samples.

Results

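The genes examined here encode the machinery that brings proteins into mitochondria and the carriers that move metabolites through the inner membrane. They were all protein-coding genes whose symbol begins with Timm or Tomm (translocases of the inner and outer membrane) or with Slc25 (solute carrier family 25). There were 73 of them, 26 Timm and Tomm genes and 47 Slc25 genes, among 21479 protein-coding genes with a known 5′ end. At their promoters, binding of CHD2 was read from peak lists of chromatin immunoprecipitation sequencing (ChIP-seq) in ES-E14, an embryonic stem cell line from a male 129/Ola mouse embryo. CHD2 is a chromatin remodeller of the chromodomain helicase family. The series holds 1 group of 2 biological replicates with no treatment or altered genotype in the labels, and the labels name 1 biosample for both, so the spread between them may be technical. Peak lists hold no expression values, so the cells' identity could not be checked against markers, and a control library was not analysed here.

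Most mitochondrial proteins are made in the cytosol. They pass the outer membrane through the TOM complex and are then sorted, either through the TIM23 complex to the matrix and inner membrane, or by small chaperones of the intermembrane space to the TIM22 complex, which inserts carrier proteins of the Slc25 family into the inner membrane. Slc25 carriers exchange nucleotides, phosphate, amino acids, carboxylates, metals and cofactors between the matrix and the cytosol, so the translocases and the carriers are linked as machine and cargo.

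Each gene was scored by the highest signal of a peak summit within 1 kb of the outer 5′ end of the gene, called a promoter peak here. Signals are those the authors deposited, carry no stated normalization and were compared only within a list. Scores were taken in the optimal list, which drew on both replicates and held peaks with signals of 5.74 to 463, and in an equal number of the strongest peaks of each replicate's own relaxed list, which reached down to a signal of 11.1 in replicate 1 and 11.6 in replicate 2. Each whole relaxed list held 300000 peaks and by its file name includes background; the strongest value within 1 kb in it is called a relaxed signal and can lie above or below those limits. The number of reads behind the lists is unknown. With 1 group there was no test over samples, and genes are not replicates, so values are given in each list without p-values.

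The promoters of the 2 genes with the highest signal in each family are printed below. So is that of the gene in each family with the most promoter CpG among those with no peak in any of the 3 lists. Each runs 5′ to 3′ from 250 bases before to 50 bases after a RefSeq start on GRCm38.p6, the build of the mm10 lists. Capitals mark exact matches on either strand to the motifs listed further on.
Timm13, chr10:80900920-80901219, minus strand: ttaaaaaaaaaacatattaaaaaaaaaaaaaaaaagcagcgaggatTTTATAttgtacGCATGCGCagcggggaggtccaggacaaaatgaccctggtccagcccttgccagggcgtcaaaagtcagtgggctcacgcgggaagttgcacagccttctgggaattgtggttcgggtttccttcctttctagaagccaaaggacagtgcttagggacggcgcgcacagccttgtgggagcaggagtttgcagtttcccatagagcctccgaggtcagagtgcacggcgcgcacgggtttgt
Timm17a, chr1:135313688-135313987, minus strand: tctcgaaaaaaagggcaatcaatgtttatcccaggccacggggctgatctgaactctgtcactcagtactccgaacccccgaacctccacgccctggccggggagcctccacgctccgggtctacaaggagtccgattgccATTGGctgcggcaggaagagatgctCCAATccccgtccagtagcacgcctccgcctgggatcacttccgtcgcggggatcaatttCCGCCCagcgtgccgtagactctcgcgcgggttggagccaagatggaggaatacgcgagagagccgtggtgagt
Slc25a4, chr8:46211013-46211312, minus strand: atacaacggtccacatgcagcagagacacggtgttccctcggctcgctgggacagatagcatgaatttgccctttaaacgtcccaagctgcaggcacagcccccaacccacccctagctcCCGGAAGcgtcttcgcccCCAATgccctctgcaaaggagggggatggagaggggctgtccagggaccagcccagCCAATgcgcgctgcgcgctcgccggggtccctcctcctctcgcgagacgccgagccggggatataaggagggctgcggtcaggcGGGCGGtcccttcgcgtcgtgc
Slc25a11, chr11:70646990-70647289, minus strand: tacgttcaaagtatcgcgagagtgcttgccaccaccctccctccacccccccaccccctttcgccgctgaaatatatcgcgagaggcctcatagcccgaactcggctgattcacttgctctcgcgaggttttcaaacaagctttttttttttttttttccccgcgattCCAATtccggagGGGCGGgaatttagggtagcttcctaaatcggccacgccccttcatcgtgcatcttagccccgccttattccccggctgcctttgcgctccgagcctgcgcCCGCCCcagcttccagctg
Timm23, chr14:32201842-32202141, minus strand: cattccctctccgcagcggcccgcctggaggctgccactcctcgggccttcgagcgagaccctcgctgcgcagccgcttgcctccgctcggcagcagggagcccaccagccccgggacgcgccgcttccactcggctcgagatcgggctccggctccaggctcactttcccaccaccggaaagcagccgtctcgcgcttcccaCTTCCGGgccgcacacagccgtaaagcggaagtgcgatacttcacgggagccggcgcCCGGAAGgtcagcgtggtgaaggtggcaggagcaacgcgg
Slc25a40, chr5:8422588-8422887, plus strand: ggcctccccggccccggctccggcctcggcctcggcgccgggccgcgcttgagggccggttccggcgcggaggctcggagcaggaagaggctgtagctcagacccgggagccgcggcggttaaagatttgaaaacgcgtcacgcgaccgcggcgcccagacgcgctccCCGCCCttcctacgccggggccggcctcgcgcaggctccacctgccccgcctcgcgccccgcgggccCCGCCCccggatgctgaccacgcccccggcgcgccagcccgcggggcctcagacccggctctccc
The summit lay at base 159 of the Timm13 window, base 224 of the Timm17a window, base 225 of the Slc25a4 window and base 104 of the Slc25a11 window. The RefSeq start shown for Slc25a11 lies 492 bp inside the outer 5′ end of the gene. Timm23 and Slc25a40, without a promoter peak, were picked for high promoter CpG, so the 35 and 47 CpG of their windows were high by choice. The windows picked by signal held 16 at Timm13, 25 at Timm17a and Slc25a4 and 24 at Slc25a11. Slc25a40 was near the limits: its relaxed signal of 11.2 in replicate 2 lay just below the 11.6 of that list. An optimal summit of signal 44.4 lay 1646 bp inside the gene, beyond the window of 1 kb.

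Promoter peaks were found more often at translocase genes than at carrier genes in the mm10 lists, but this order did not hold in the mm9 list. In the optimal list 12 of 26 Timm and Tomm genes had one (46.2%), against 8 of 47 Slc25 genes (17%) and 14.1% of all protein-coding genes. In replicate 1's own list the counts were 12 and 10 (46.2% and 21.3%, against 14.6% of all genes), and in replicate 2's they were 10 and 11 (38.5% and 23.4%, against 14.2%). The difference between the families was thus 29.1 percentage points in the optimal list, 24.9 in replicate 1 and 15.1 in replicate 2. The Slc25 share was 2.89 points above that of all genes in the optimal list, less than the 6.70 and 9.20 points of the replicates' lists.

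**Figure D1:**
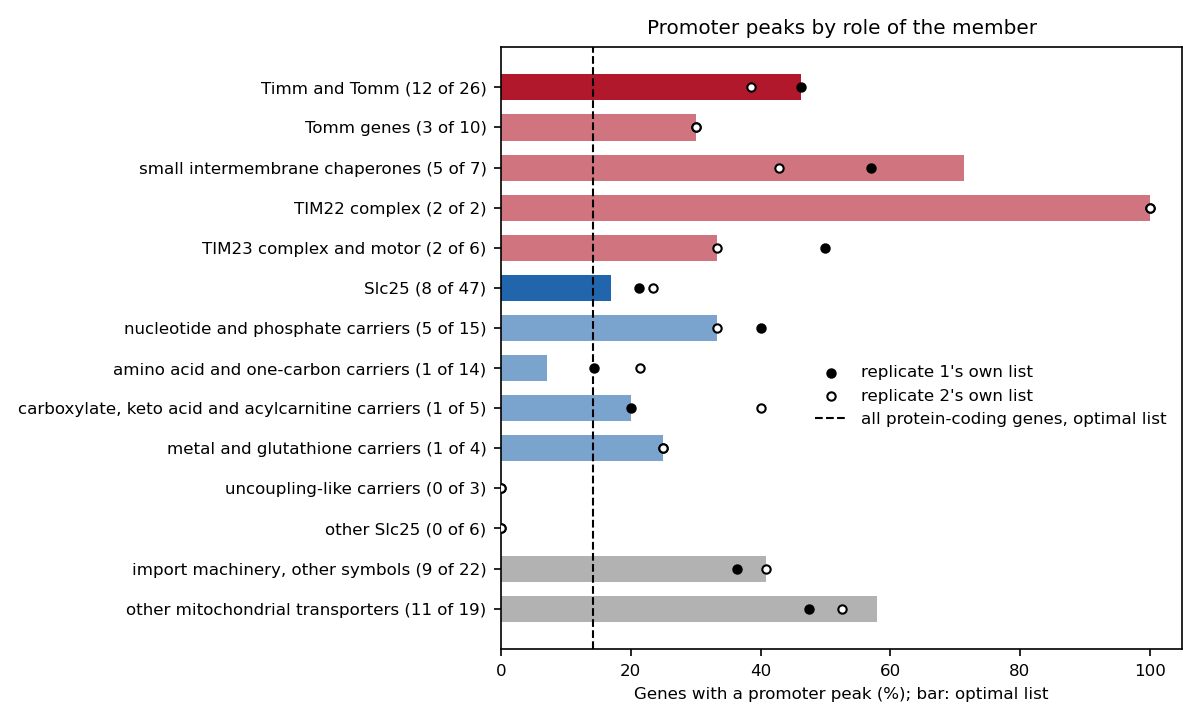
Share of genes with a promoter peak (percent, horizontal axis) by family and role. Bars show the optimal list, filled and open points the own lists of replicates 1 and 2, and the dashed line the 14.1% of all protein-coding genes; the Timm and Tomm bar reaches 46.2% and the Slc25 bar 17%.

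The difference was smaller among peaks found in every list. Genes with a peak in all 3 lists numbered 7 of 26 translocases (26.9%) and 8 of 47 carriers (17%), against 10.1% of all genes, a difference of 9.90 percentage points. Of the 12 optimal translocase peaks, 5 appeared in the list of only 1 replicate, or 41.7%, while all 8 carrier peaks appeared in both; over all genes with an optimal promoter peak the share in only 1 replicate was 23.8%. With the optimal list cut to its stronger peaks, down to its median signal of 29.6, the counts were 7 and 8, against 10.2% of all genes. These 7 translocases were not all the same genes: the stronger peaks held Timm21 and not Timm9, and the 3 lists shared Timm9 and not Timm21. The median optimal signal was 31.8 over the 12 translocases with a peak and 53.8 over the 8 carriers, against 44.97 over all 3035 genes with one. In replicate 1 the medians were 20.1 and 26.55, and in replicate 2 they were 21.7 and 21.9, nearly equal.

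On mm9 a separate list of 4613 peaks had promoter peaks at 3 of 26 translocases (11.5%) and 7 of 46 carriers (15.2%), against 10.6% of all genes. The difference there was -3.68 percentage points. Of the genes with an optimal peak that could be matched to the mm9 annotation, 64.6% had an mm9 promoter peak. The share was 42.5% at those with an optimal signal below the median, and the translocases' own median of 31.8 was below it. Among the members the share was 7 of 8 carriers (87.5%) but 3 of 12 translocases (25%), namely Timm17a, Timm22 and Timm10. Timm13, Tomm40, Timm29 and Slc25a28 lacked an mm9 peak although their optimal signals were above 44.97, the median of all genes with one; of all genes at or above that median 86.8% had an mm9 peak, and of the 10 such members 6 had. Why the lists differ was not tested.

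The TOM complex is the entry gate of the outer membrane. The Tomm genes were grouped by symbol, not by membership of this complex, and include Tomm40l, Tomm20l and Tomm34. An optimal peak was found at 3 of these 10 genes, against 14.1% of all genes. Tomm40, the gene of the protein-conducting channel, had an optimal signal of 84.7, with 45.1 in replicate 1 and 38.6 in replicate 2 (chromosome 7, 19715477 to 19715628). Its paralog Tomm40l had 33.2, with 12.5 and 20.7 (chromosome 1, 171222370 to 171222729). Tomm70a, a receptor for carrier precursors, had the lowest signal of all members with an optimal peak, 20.4, and its peak was in the list of replicate 2 only: its relaxed signals were 7.03 and 19.3. Tomm40 was thus the only Tomm gene with a signal above the median of all genes with a promoter peak. Tomm5 had a peak of 11.6 in the list of replicate 1 only. The receptor genes Tomm20 and Tomm22, the small subunit genes Tomm6 and Tomm7, and Tomm20l and Tomm34 had no promoter peak in any of the 3 lists.

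The small chaperones of the intermembrane space escort hydrophobic precursors between the membranes. They had a peak at 5 of 7 genes in the optimal list (71.4%, against 14.1% of all genes). Timm13 had the highest signal of all translocase genes, 172, with 91.5 in replicate 1 and 81.9 in replicate 2 (chromosome 10, 80900929 to 80901182). The other 4 were weak and close to each other. Timm9 had 28.9, with 15.3 and 12.8, and was the only one of them in the lists of both replicates. Its partner Timm10 had 26.7, with 13.8 in replicate 1 and a relaxed signal of 11.03 in replicate 2. Timm10b, a partner of the TIM22 complex, had 26.98, with 16.6 and a relaxed signal of 10.7. Both values of replicate 2 lay just below the lowest signal of 11.6 in its own list. Timm8b had 27.3, with a relaxed signal of 9.06 in replicate 1 and 18.4 in replicate 2. Timm8a1 and Timm8a2 had no promoter peak in any list, so 2 of the 7 genes were found in all 3 lists (28.6%, against 10.1% of all genes).

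The 2 genes assigned to the TIM22 complex, which inserts carriers into the inner membrane, both had a peak in all 3 lists. Over all genes that share was 10.1%, and a group of 2 genes is small. Timm22, the core of the complex, had 57.6, with 33.7 and 23.02 (chromosome 11, 76406916 to 76407275). Timm29 had 49.3, with 24.4 and 22.7 (chromosome 9, 21592692 to 21593051). Both summits lay inside the gene, unlike those of the other 10 translocases. Of the 6 genes of the TIM23 complex and its motor, 2 had an optimal peak (33.3%, against 14.1% of all genes). Timm17a had 137, with 84.6 and 52.2 (chromosome 1, 135313661 to 135313863). Timm21 had 30.5, and its relaxed signals of 23.6 and 8.37 put it in the list of replicate 1 only. Timm44, a scaffold of the import motor, had a peak in replicate 1 (15.5) and a relaxed signal of 5.34 in replicate 2. Timm50, a receptor of the complex, had 13.3 in replicate 2 and a relaxed signal of 9.28 in replicate 1. The channel gene Timm23 and Timm17b had no peak in any list, and neither did Timmdc1, which takes part in assembly of respiratory complex I. The paralogs Timm17a and Timm17b thus differed: Timm17b had relaxed signals of 10.7 and 4.14.

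**Figure D2:**
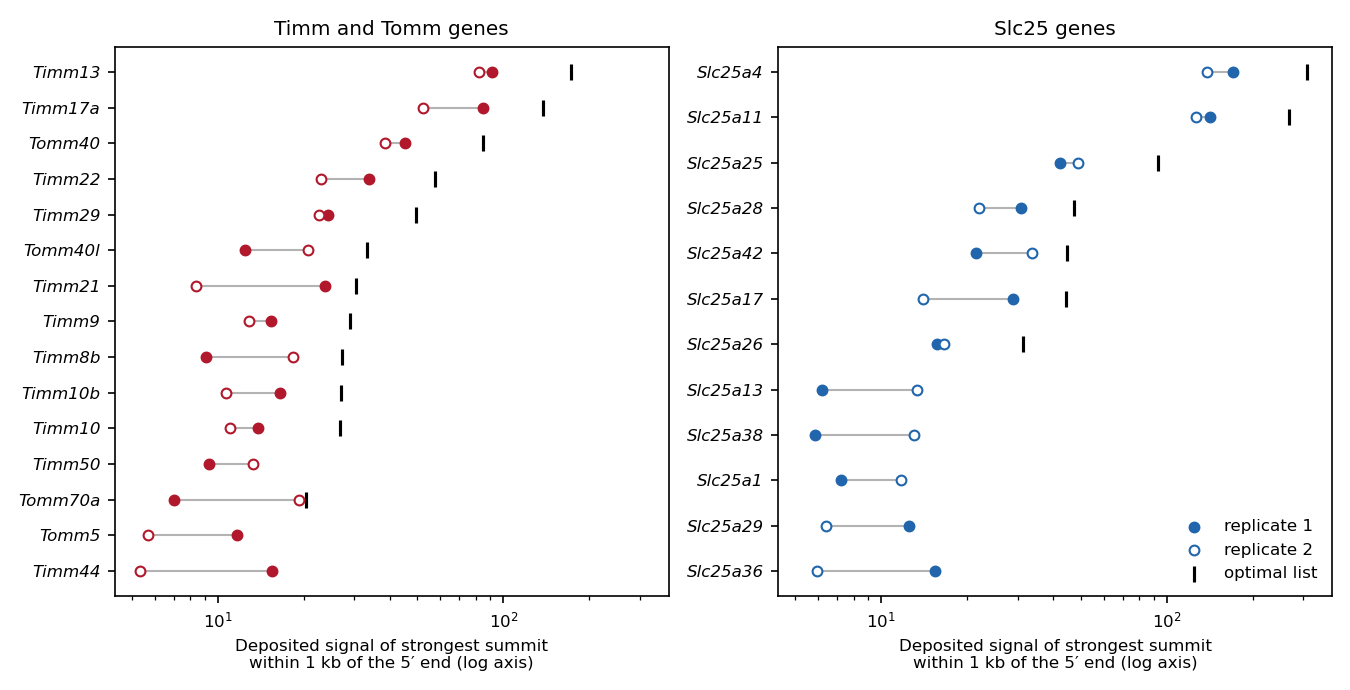
Signals of members with a promoter peak in at least 1 list (log axis; 1 member is not shown), for Timm and Tomm genes on the left and Slc25 genes on the right. Filled and open points are the strongest relaxed summits of replicates 1 and 2 and black ticks the optimal list, whose scale differs from that of the replicates; Timm13 (172) and Slc25a4 (309) stand at the top.

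Among the carriers, the peaks of highest signal lay at Slc25a4 and Slc25a11. Slc25a4 encodes the ADP/ATP carrier of heart and muscle. Its optimal signal was 309, rank 77 in the list, with 170.2 in replicate 1 and 138 in replicate 2 (chromosome 8, 46210940 to 46211213). By contrast its paralogs had no promoter peak in any list: Slc25a5, the widely expressed ADP/ATP carrier, had relaxed signals of 3.92 and 5.41, and Slc25a31, the germline form, had 6.95 and 2.89. Slc25a11, the oxoglutarate-malate carrier, had 268, with 142 and 126 (chromosome 11, 70647017 to 70647415).

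Of the 15 nucleotide and phosphate carriers, 5 had an optimal peak (33.3%, against 14.1% of all genes), all of them in both replicates. Beside Slc25a4 they included Slc25a25, a calcium-regulated ATP-Mg/phosphate carrier, with 93.2 (42.3 and 48.8 in the replicates). Slc25a42, a coenzyme A carrier, had 44.7 (21.5 and 33.6), and the peroxisomal carrier Slc25a17 had 44.2 (29.02 and 13.98). Slc25a36 had a peak of 15.4 in replicate 1 only. An optimal summit of signal 19.2 lay 1001 bp upstream of its 5′ end, just outside the window. The phosphate carrier Slc25a3 had none, with relaxed signals of 9.17 and 8.47. Further genes without a peak were Slc25a16, Slc25a23, Slc25a24, Slc25a33, Slc25a41 and Slc25a51, so 10 of the 15 had no optimal promoter peak.

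Carriers of amino acids and one-carbon units had an optimal peak at 1 of 14 genes (7.14%, against 14.1% of all genes). In replicate 1 it was 2 of 14 (14.3%, against 14.6%) and in replicate 2 it was 3 of 14 (21.4%, against 14.2%). The lists thus differed by single genes, too few to set the group apart from all genes. The optimal peak lay at Slc25a26, the S-adenosylmethionine carrier, with 31.4 and replicate signals of 15.6 and 16.6. In single replicates Slc25a29 (12.5 in replicate 1), Slc25a13, an aspartate-glutamate carrier (13.3 in replicate 2), and Slc25a38 (13.04 in replicate 2) had a peak. Those 3 lay near the lowest signal of their list. The other 10 had none in any list: Slc25a2, Slc25a12, Slc25a15, Slc25a18, Slc25a22, Slc25a32, Slc25a44, Slc25a45, Slc25a47 and Slc25a48.

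Of 5 carriers of carboxylates, keto acids and acylcarnitine, Slc25a11 alone had an optimal peak. The citrate carrier Slc25a1 had 11.7 in replicate 2 only, and Slc25a10, Slc25a20 and Slc25a21 had none. Of 4 metal and glutathione carriers, the iron carrier Slc25a28 (mitoferrin 2) had 47.3, with 30.96 and 21.9. Its paralog Slc25a37 (mitoferrin 1) had no summit within 1 kb even in the relaxed lists. The glutathione carriers Slc25a39 and Slc25a40 had none. Neither did the uncoupling-like carriers Slc25a14, Slc25a27 and Slc25a30, nor the remaining Slc25a34, Slc25a35, Slc25a43, Slc25a46, Slc25a53 and Slc25a54. Of all genes, 81.1% had no peak in any of the 3 lists. In the pooled relaxed list Slc25a53 (20.9), Slc25a39 (20.7) and Timm50 (20.4) had signals as high as Tomm70a (20.4), which was in the optimal list, so the optimal list is not a plain threshold on signal.

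Across the 49 members with a relaxed promoter summit in both replicates, the signals of both replicates had a Spearman's rho of 0.583, against 0.673 over 9032 such protein-coding genes. It was 0.770 over the 20 members with an optimal peak and 0.761 over 3017 such genes. Over the 29 members without an optimal peak but with a summit in both replicates it was -0.282. No value over all genes of that kind was computed, so it cannot be called particular to the members. These points share their libraries, depth and base composition, and the optimal list was itself made from both replicates. In all, 45 members (61.6%) had no promoter peak in any of the 3 lists, against 81.1% of all genes, and 11 of 73 had no summit within 1 kb in either replicate's relaxed list, against 6846 of 21479 genes.

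**Figure D3:**
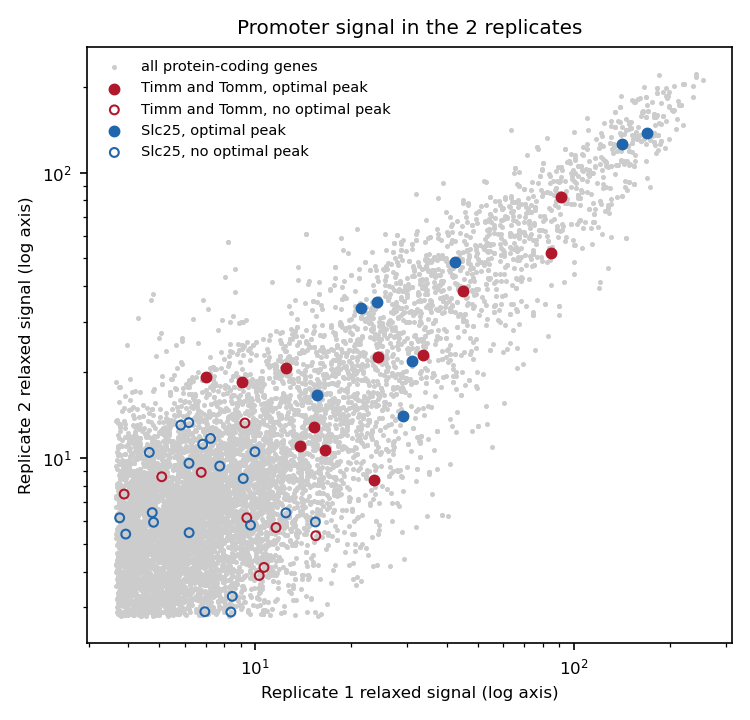
Strongest relaxed signal within 1 kb of the 5′ end in replicate 1 (horizontal) and replicate 2 (vertical), both on log axes, for all protein-coding genes in grey and for members in colour. Filled points have an optimal peak; the 2 upper right members are Slc25a4 and Slc25a11.

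The summits lay close to the 5′ end. The median distance was 98 bp over the 12 translocases and 110 bp over the 8 carriers, against 104 bp over all genes with an optimal promoter peak. It was within 150 bp at 11 of the 12 translocases (91.7%) and 5 of the 8 carriers (62.5%), against 61.0% of all such genes. The exceptions among carriers were Slc25a25 (533 bp upstream), Slc25a28 (343 bp upstream) and Slc25a11 (345 bp inside). Several translocase peaks also lay at a neighbour's promoter. Another protein-coding 5′ end lay within 1 kb of the summit at 6 of 12 translocases (50%) and 1 of 8 carriers (12.5%), against 28.5% of all such genes.

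The shared peaks were mostly those of the small chaperones. The Timm10 summit lay 125 bp from Timm10 and 49 bp from Smtnl1. The Timm10b summit lay 116 bp from Timm10b and 87 bp from Arfip2. At Timm8b the distances were 104 bp and 52 bp from Sdhd, which encodes a subunit of respiratory complex II, and at Timm29 they were 150 bp and 41 bp from Yipf2. The Timm9 summit was nearly equidistant, 68 bp from Timm9 and 72 bp from 2700049A03Rik. Apoa2 had its 5′ end 986 bp from the Tomm40l summit. Among the carriers, the Slc25a11 summit lay 44 bp from Rnf167. A peak list cannot say to which gene such a peak belongs. With each peak counted for the nearest gene only, 8 translocases (30.8%) and 8 carriers (17%) had one, against 12.2% of all genes, and the difference was 13.8 percentage points. Slc25a11 stayed only through a second summit of signal 9.62 in the same peak.

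**Figure D4:**
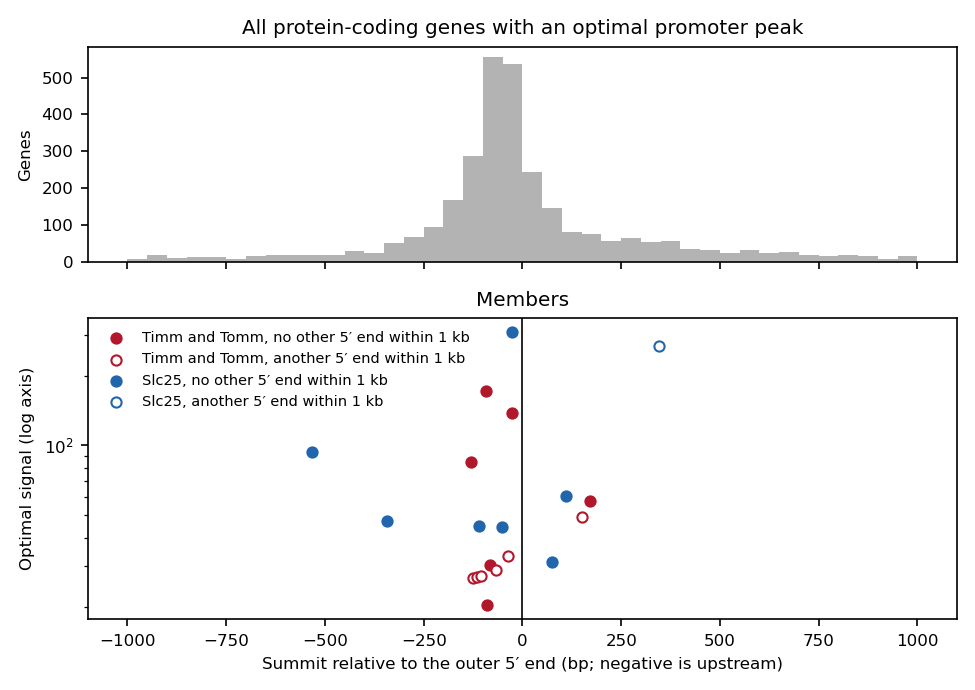
Upper panel, number of protein-coding genes by position of the optimal summit relative to the outer 5′ end in bp. Lower panel, optimal signal (log axis) of the 20 members by position; open points have the 5′ end of another gene within 1 kb, as at Timm8b, Timm9, Timm10 and Timm10b with signals of 26.7 to 28.9.

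Promoter CpG, counted within 500 bp of the 5′ end on mm9, did not set occupied translocases above the others. Its median was 56 at the 12 translocases with an optimal peak and 64.5 at the 14 without. At carriers it was 59.5 at the 8 with and 51 at the 38 without. Over all genes the medians were 64 and 37. Restricted to genes at or above the overall median of 44, 8 of 20 translocases (40%) and 6 of 29 carriers (20.7%) had an optimal peak, against 23.3% of such genes. In replicate 1 those shares were 40% and 27.6%, against 24%, and in replicate 2 they were 40% and 31%, against 23.2%. The share of high-CpG carriers was thus below that of high-CpG genes in the optimal list and above it in both replicates' lists. Single members went both ways. Timm23 (100 CpG), Slc25a1 (100), Slc25a40 (99) and Slc25a33 (97) had no optimal promoter peak, whereas Tomm40l (27) and Slc25a17 (32) had one. In the other direction, Slc25a25, which had the most promoter CpG of all members with a count, and the CpG-rich Slc25a28 had an optimal peak. Slc25a18, Slc25a46 and Slc25a41, which had the least promoter CpG, had none.

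**Figure D5:**
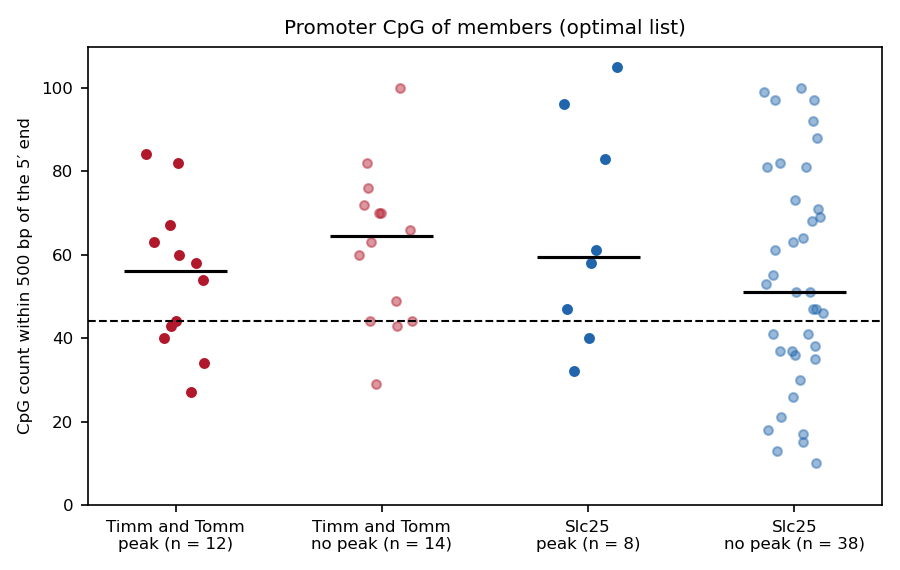
CpG count within 500 bp of the 5′ end for members with and without an optimal promoter peak. Short lines are medians (56 and 64.5 for Timm and Tomm genes, 59.5 and 51 for Slc25 genes) and the dashed line is the median of 44 over all protein-coding genes.

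Motifs were searched in one promoter window of the kind printed above per gene, which was available for 59 members and 17492 genes. This window did not reach the optimal summit at Slc25a25, Slc25a28, Timm22 and Timm29, so a match there need not lie at the peak. Among members without an optimal peak, the RefSeq start used lay over 1 kb from the outer 5′ end at 3 genes. These were Timm8a2 (6997 bp, with the ETS letters), Slc25a47 (1296 bp) and Slc25a39 (1158 bp), so their windows were not centred where peaks were scored. The letters, matched on both strands, were GCATGCGC (the core of the NRF1 site), CCGGAAG (ETS), AAGATGGC (YY1), CCAAT (NFY), GGGCGG (Sp), TGACGTCA (CREB), CACGTG (E-box), ACTACAA (ZNF143) and TATAAA (the box bound by TBP). NRF1 and the ETS factor GABP are known as regulators of nuclear genes for mitochondria. The ETS letters were in 8 of 16 members with an optimal peak (50%) and 9 of 43 without (20.9%), against 22.4% of all promoters with such a peak and 11.9% of all promoters. By family they were in 10 of 23 translocase promoters (43.5%) and 7 of 36 carrier promoters (19.4%). Within translocases they were in 5 of 10 with a peak and 5 of 13 without (38.5%), and within carriers in 3 of 6 with a peak and 4 of 30 without (13.3%). The NRF1 core was in 3 of 59 members (5.08%, against 3.61% of all promoters), among them Timm13, whose match centred 97 bp from the summit. The remaining motifs were in few members: AAGATGGC in 2 (3.21% of all promoters), TGACGTCA in 1 (2.33%), ACTACAA in 2 (3.82%), TATAAA in 3 (13.3%) and CACGTG in 11, or 18.6% (7.91%).

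CCAAT and GGGCGG were in all 6 carrier promoters with an optimal peak and a window, at Slc25a4, Slc25a11, Slc25a17, Slc25a25, Slc25a28 and Slc25a42. At Slc25a25 and Slc25a28 the summit lay 533 and 343 bp upstream of the outer 5′ end, outside the searched window. CCAAT was in 11 of 30 carrier promoters without a peak (36.7%) and GGGCGG in 24 of 30 (80.0%). Among translocases with a peak, CCAAT was in 2 of 10, at Timm17a and Tomm40, and GGGCGG in 5 of 10. Among translocases without a peak, CCAAT was in 5 of 13 (38.5%), so its direction was opposite to that among carriers, and GGGCGG in 6 of 13 (46.2%). Over all promoters with an optimal peak the shares were 56.6% for CCAAT and 64.6% for GGGCGG, and over all promoters 39.2% and 46.3%. In the windows printed above, Slc25a4 has CCAAT at bases 139 to 143 and 195 to 199, the latter 28 bp from the summit, and Timm17a has it on either strand 55 and 80 bp from the summit. Such short words occur often, and a match does not show that a factor binds.

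Genes of the same pathway under other symbols were compared by the same score. Of 22 further import genes, 9 had an optimal promoter peak (40.9%, against 14.1% of all genes). In replicate 1 it was 8 (36.4%, against 14.6%) and in replicate 2 it was 9 (40.9%, against 14.2%). The highest were Pam16, a part of the import motor (72.7), Immp1l, an inner membrane peptidase (64.5), whose summit lay 57 bp from Elp4, and Grpel1, the nucleotide exchange factor of mitochondrial Hsp70 (46.0). Grpel2 and Dnajc19 had none. None of 5 Slc25 family members with other symbols had a peak in any list: the uncoupling proteins Ucp1, Ucp2 and Ucp3, and Mtch1 and Mtch2. Of all genes, 81.1% had none either, so these 5 do not stand out. Of 19 transporters and channels outside the family, 11 had an optimal promoter peak (57.9%, against 14.1% of all genes). In replicate 1 it was 9 (47.4%, against 14.6%) and in replicate 2 it was 10 (52.6%, against 14.2%). The highest were Micu2, a regulator of the calcium uniporter (335, with 171 and 164), Vdac3, an outer membrane channel (257, with 144 and 110.1), and the uniporter subunit gene Smdt1 (187, with 123 and 60.8). Mcub and Letm1 had none. The share at these 19 genes was above that of the 47 Slc25 carriers in each of the 3 lists. It was also above that of the 26 Timm and Tomm genes in each, though only slightly in replicate 1 (47.4% against 46.2%).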

How the data were processed

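CHD2 was profiled by ChIP-seq in 2 biological replicates of ES-E14. The deposited signal value per peak was used, and the deposited descriptions give the IDR (irreproducible discovery rate) lists and relaxed lists on mm10 and 1 list on mm9. The peak caller, aligner, filters and control handling are not stated here and can shift every signal. Depth is unknown. Gene ends came from RefSeq (GRCm38.p6). Strand came from the RefSeq promoter table for 17492 genes and otherwise from GENCODE M1 by symbol (3606) or synonym (381), in all for 21479 of 21900 protein-coding genes (98.1%) and all 73 members. The outer 5′ end misses internal starts. CpG was counted on mm9 for 72 members, joined by symbol, and coordinates were never moved between builds. The promoter score was tested on simulated data. Analyses used Python 3.11.15, numpy 2.4.6, pandas 2.3.3 and scipy 1.17.1.

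Members and lists were chosen with earlier results of these data known. Roles, pathway genes and motifs were listed by hand; members are named (1 is not reported here but stays in the counts), other pathway genes by up to 3 highest signals and up to 2 without a peak, and promoters by signal or CpG. Alternatives changed the list, window, assignment, threshold, build and 5′ end.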

Additional observations from a re-analysis of the deposited data

How the results depend on the processing

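Direction and size of the family difference depended on the list. Over 14 alternatives the share of translocases exceeded that of carriers in 12 and was lower in the other two, which used mm9 with the outermost or any transcript start: -3.68 percentage points in each, with 10 members and 3 translocases occupied; the cause was not tested. With either replicate left out, by using the other's own list, it ran from 15.1 to 24.9. It was 9.90 among the stronger optimal peaks (the upper part of the list, split at its median), with 7 translocases, and 13.8 with peaks counted for the nearest gene only. Chosen after seeing the data, it was 9.90 with peaks required in the optimal and both replicates' lists, again with 7 translocases, and 19.3 among genes of high promoter CpG.

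Median signals moved with the list, whose scales differ. For translocases (31.8) they were 20.1 to 21.7 with a replicate left out, 30.5 in the pooled list, 57.6 among the stronger optimal peaks and with all 3 lists required, 45.4 for the nearest gene only, 67.9 in both mm9 versions and 39.1 at high CpG. For carriers (53.8) they were 21.9 to 26.55, then 46.0 in the pooled list, at 2.5 kb and for the nearest gene only, 47.3 in the conservative list, at 500 bp and with any base of the peak in the window, 71.8 in both mm9 versions and 76.7 at high CpG. No paired analysis was possible because there was 1 group. Read depth limits every list to an unknown degree.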

Other observations

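Away from promoters, some members held optimal summits inside the gene and more than 1 kb from the 5′ end. The share over all protein-coding genes was not counted, so they are given only as single cases. At Slc25a40, which had no promoter peak, a summit of signal 44.4 lay 1646 bp inside the gene. Slc25a12 and Slc25a13, which encode the 2 aspartate-glutamate carriers, had no optimal promoter peak but a summit each in the gene body, of signal 28.5 at 31376 bp and 28 at 76763 bp from the 5′ end. Slc25a53 had one of 23.5 at 49109 bp. Tomm20 held 3, of which the strongest had 15.4 at 13797 bp, and Slc25a25 held 2 beside its promoter peak, the stronger with 32.7 at 20253 bp.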
